A study of Mus musculus with 2 samples.

Results

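The primed epiblast core comprised 350 of the 1826 cells that carried the primed sample tag, out of 17720 cells in the whole single-cell RNA-seq table. Each primed-tagged cell was scored by the mean over 6 genes of ln(1 + reads per 10000 reads of the cell), and the 350 cells with the highest scores were taken as members. The score genes were Pim2 (a survival kinase), L1td1 and Lin28a (RNA-binding proteins of early embryonic cells), Utf1 (a chromatin factor of undifferentiated cells), Enpp3 (a surface nucleotide pyrophosphatase) and Slc7a3 (an arginine transporter). The 1000 primed-tagged cells with the lowest scores served as the comparison, and 476 cells lay between the groups. The members were therefore selected on measured values, and every difference between them and the low-scoring cells is a description of that selection and carries no test.

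The primed sample was the epiblast stem cell line Oct4GIP, cultured in FGF2 and activin A and labelled with strain 129/Ola. The labels place these cells on mouse embryonic fibroblast feeders (MEF), whereas the methods of the study describe fibronectin-coated plates for this line and feeders for the reversion culture. The other tags were naive embryonic stem cells of the Rex1-GFP line (naive), primed cells given AICAR, which activates AMPK, together with the cytokine LIF for 8 days (labelled d8) or for 16 days (labelled d16), and cells of day 16 grown on in 2iL medium for 10 passages (d16+10p). All 5 populations were pooled in 1 cDNA library, each population was 1 sample, and each tag was held by streptavidin on antibodies against CD9 and CD63. Cells are not replicates, so errors below are 95% counting intervals. They cover counting error only and leave out variation between cells. The counts were taken as reads and not molecules, so repeated reads of 1 molecule can make the intervals too narrow.

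Epiblast stem cells represent the post-implantation epiblast, the tissue that gives rise to the germ layers. They express Oct4 (gene Pou5f1), Sox2 and Nanog, depend on FGF and activin signals, and differ from naive stem cells by factors such as Dnmt3b, Fgf5 and Pou3f1 and by the absence of Zfp42, Esrrb and Klf genes. Single cells of such cultures are known to vary in genes of the primitive streak, the site of gastrulation, among them T (brachyury), Eomes and Fgf8.

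Scores of the members ranged from 0.543 to 1.60 with a median of 0.896, and those of the low-scoring cells from 0 to 0.141. The lowest member scored 0.5428 and the next cell 0.5420, so the border of the group fell in a continuous distribution. Among the low-scoring cells 751 had no read of any score gene. All 6 score genes were read in 128 members, 5 in 107, 4 in 73, 3 in 31 and 2 in 11. L1td1 was at 434 CPM (read counts pooled over the group and scaled to 1000000) in the members and 8.79 CPM in the low-scoring cells, and Pim2 was at 337 CPM and 4.35 CPM. The groups also differed in depth: members had a median of 23822.5 reads and 5216.5 genes, and low-scoring cells 8750.5 reads and 2928.5 genes. The median mitochondrial share was 6.26% in the members and 7.50% in the low-scoring cells. The part of depth in the differences between these groups was not tested beyond the comparison within 1 range of depth given below. No cell barcode was shared between tags, and 500 primed cells had been loaded against 1826 found, or 3.65 cells per cell loaded.

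**Figure D1:**
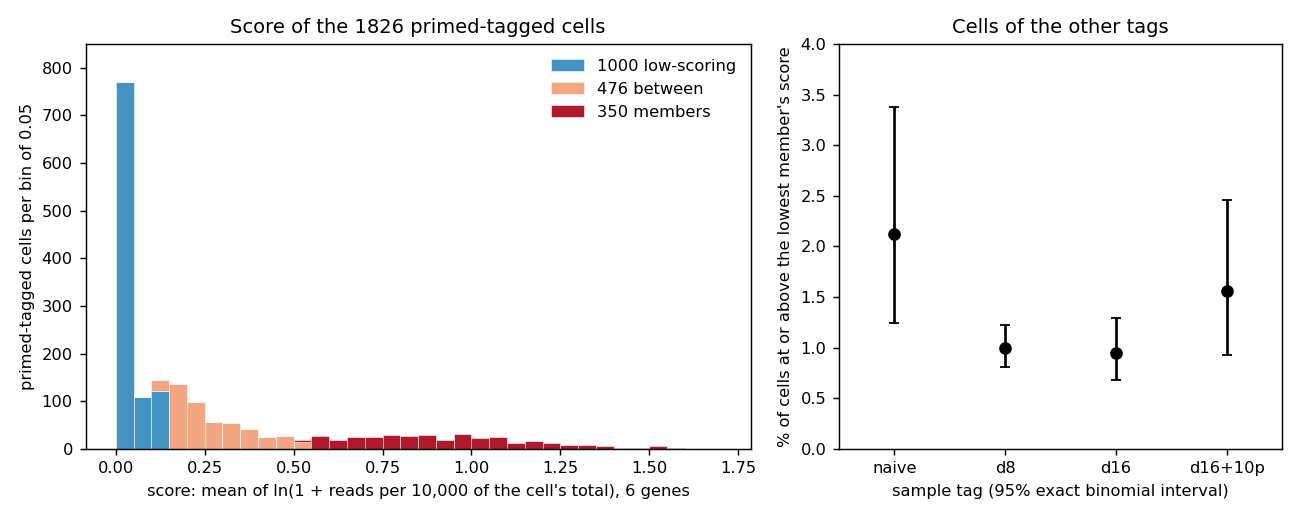
Left: number of primed-tagged cells per score bin of 0.05, colored by group; right: percentage of cells of each other tag that scored at or above the lowest member, with 95% exact binomial intervals. The members form a broad shoulder from 0.543 to 1.60, and between 0.950% and 2.12% of the cells of the other tags reached their range.

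Marker genes that the score did not use were read to check the label. Pou5f1 was at 439 CPM in the members, 145 CPM in the cells between, 61.1 CPM in the low-scoring cells and 24.6 CPM in the 200 d8 cells with the highest macrophage marker score, which served as cells that should lack these genes. Dnmt3b, the de novo DNA methyltransferase of the epiblast, was at 189, 50, 28.3 and 7.37 CPM in the same order. The Wnt ligand gene Wnt8a was at 52.3, 19.0, 5.31 and 0.691 CPM, and Car14, a membrane carbonic anhydrase, at 59.8, 14.4, 15.6 and 2.53 CPM. The naive factor Zfp42 (Rex1) was at 31.7 CPM in the members against 564 CPM in naive cells, and Esrrb was at 8.05 CPM against 123 CPM. After each cell was thinned to 5000 reads, reads of at least 3 of 8 core pluripotency genes were present in 79.6% of 343 members (74.9 to 83.7%) and in 22.6% of 793 low-scoring cells (19.7 to 25.6%). At least 3 of 16 primed epiblast markers were present in 65.3% of members (60 to 70.3%), 26.2% of low-scoring cells (23.2 to 29.4%) and 0.515% of macrophage-scored cells (0.0130 to 2.84%). The label of a primed epiblast group thus fits these levels, with the exception of Otx2 and Cldn6 described below.

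**Figure D2:**
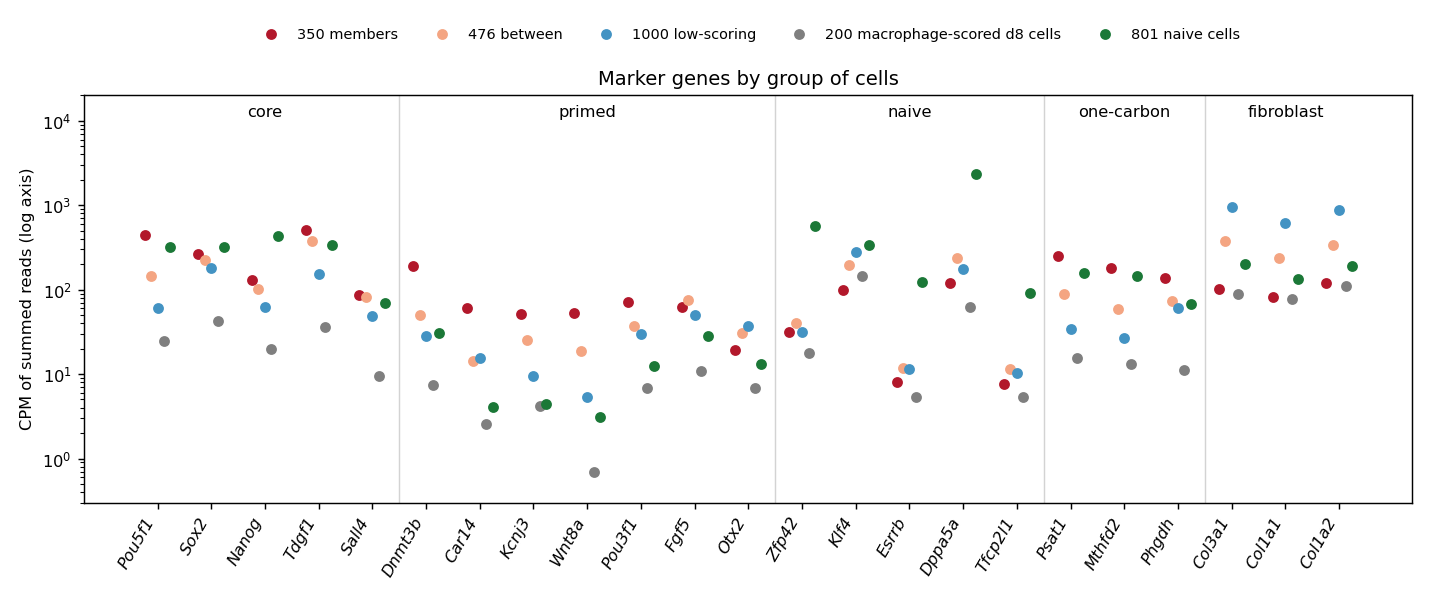
CPM of summed reads on a log axis for marker genes in the members, the cells between, the low-scoring cells, the macrophage-scored d8 cells and the naive cells. Pou5f1, Dnmt3b, Wnt8a and Psat1 stand highest in the members among the primed-tagged cells, naive genes such as Zfp42 and Dppa5a stand highest in naive cells, and collagen genes of the members lie beside those of the macrophage-scored cells.

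Across genes, 4118 reached 50 CPM in either group and 100 reads over both. Of these, 290 (7.04%) were at least 2-fold higher in the members and 460 (11.2%) at least 2-fold lower, with a median log2 ratio of 0.00 (pseudocount 1 CPM). The split depended on the scaling. With TMM factors, 549 genes were higher and 242 lower, so that higher genes made up 69.4% of the calls in place of 38.7%, and the median of all genes shifted to 0.29. Ratios below are scaled to total reads, and those within this shift of 0 have no settled direction. Both groups were also restricted to cells of 10000 to 40000 reads (278 members and 406 low-scoring cells). Then 237 genes were higher and 418 lower, and 230 and 381 of these were among the calls made with all cells. Depth was not made equal inside this range and can still differ between the groups.

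The 15 genes with the largest ratios were led by Wnt8a, with 52.3 CPM in the members and 5.31 CPM in the low-scoring cells (log2 ratio 3.08, interval 2.91 to 3.71). Pou5f1 followed with a log2 ratio of 2.82 (2.73 to 2.96). Psat1, which makes phosphoserine from an intermediate of glycolysis, had 2.81 and Mthfd2, a mitochondrial enzyme of folate metabolism, 2.71. Dnmt3b (chromosome 2, 153649450 to 153687730, GRCm38) had 2.69 and was read in 51.3% of thinned members. The X-linked Trap1a (chromosome X, 139333683 to 139338169), a tumor antigen gene also read in naive cells at 193 CPM, had 166 CPM in the members and 25.1 CPM in the low-scoring cells. Snrpn, an imprinted gene of the splicing machinery, had 252 CPM against 40.9 CPM (2.59), and the naive cells were at 58.6 CPM. Kcnj3, a potassium channel gene, had 50.8 CPM against 9.40 CPM (2.32) and was at 4.46 CPM in naive cells. Wnt8a, Dnmt3b, Snrpn and Kcnj3 were thus each at least 4 times as high in the members as in naive cells, whereas Trap1a was not. The remaining 7 genes were Cyb5r1 (log2 ratio 2.46), the long noncoding RNA genes Gm19792 (2.39) and 2810429I04Rik (2.32), 1700019D03Rik (2.28), AC127285.1 (2.28), Olfr718-ps1 (2.23) and Prss35 (2.23). Gm19792 was read in 94.2% of thinned members, the widest detection among the 15. Reads of Olfr718-ps1, a member of a large gene family, and of the unnamed transcripts can be shared with related sequences, and their values are uncertain.

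The 15 genes with the smallest ratios were mainly of connective tissue. Col3a1 (chromosome 1, 45311538 to 45349706), a fibrillar collagen, was at 102 CPM in the members and 940 CPM in the low-scoring cells (log2 ratio -3.19, interval -3.30 to -3.11). Col1a1 (-2.93), Col1a2 (-2.86), Col6a2 (-2.46) and Col5a2 (-2.45) were lower as well. The matrix Gla protein gene Mgp (-2.94), the apolipoprotein gene Apod (-2.93), the ceruloplasmin gene Cp (-2.52), Enpp2 (-2.53), Itih5 (-2.58) and the cadherin gene Cdh6 (-2.65) followed, with Parm1 (-2.71), Iapp (-2.45) and the neural transcription factor gene Zic1 (-2.44). Levels of these genes in the members were near those of cells that should lack them. Col3a1 was at 89.1 CPM, Col1a1 at 77.1 CPM against 81.3 CPM in the members, and Mgp at 10.4 CPM against 10.2 CPM in the macrophage-scored cells and the members. The part of free RNA in the levels of these genes was not tested.

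**Figure D3:**
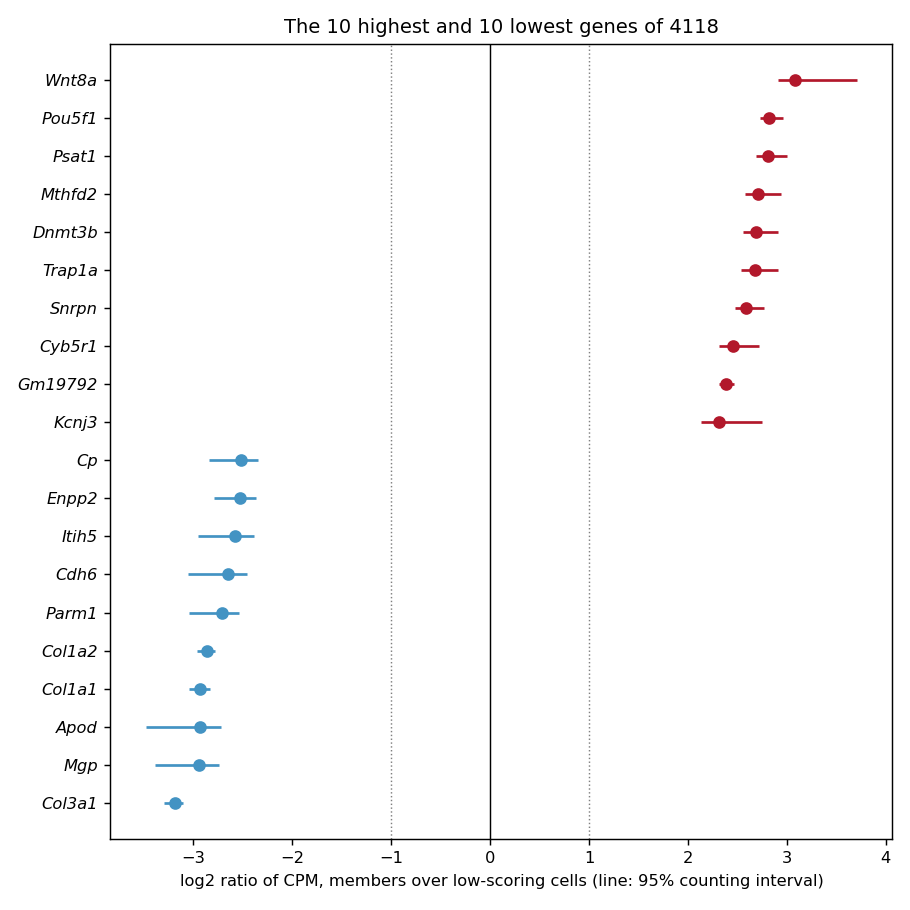
Log2 ratio of CPM, members over low-scoring cells, for the 10 highest and 10 lowest of 4118 genes, with 95% counting intervals as lines and the 2-fold limits as dotted lines. The higher genes run from Kcnj3 at 2.32 to Wnt8a at 3.08, and the lower genes from Cp at -2.52 to Col3a1 at -3.19.

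Core pluripotency genes were unequal. Of 8 listed genes, 6 passed the level rule and 3 were at least 2-fold higher, beside 7.04% of all genes, with a median log2 ratio of 0.93. Besides Pou5f1 these were Tdgf1 (Cripto, the co-receptor of Nodal), with 505 CPM against 154 CPM, and Nanog, with 130 CPM against 62.2 CPM. Nanog was close to the limit, and its log2 ratio of 1.05 fell below 1 in 5 alternatives. Sox2, which is also a gene of neural cells, was at 266 CPM in the members and 181 CPM in the low-scoring cells (0.55), and Zfp281 was at 70.4 CPM and 67.1 CPM (0.07, interval -0.09 to 0.22). Dppa2 and Dppa4 were at 7.03 and 2.49 CPM in the members, below their levels in naive cells (55.7 and 28.0 CPM).

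Primed epiblast markers were split. Of 16 listed genes, 10 passed the level rule. Of these 10, 5 were at least 2-fold higher and 1 was at least 2-fold lower, beside 7.04% and 11.2% of all genes. The median log2 ratio of the 10 was 1.02. The higher genes were Wnt8a, Dnmt3b, Kcnj3, Car14 (1.87) and Pou3f1 (1.20), a POU factor of the epiblast that was at 70.8 CPM in the members and 30.2 CPM in the low-scoring cells. Fgf5, the classical marker of the primed state, differed little, with 62.9 CPM in the members, 75.1 CPM in the cells between and 49.8 CPM in the low-scoring cells (0.33). Tead2 (0.24) also lay near 0. Cldn6, a tight junction gene, was lower in the members, with 21.9 CPM against 54.2 CPM (-1.27), and Otx2, a head and epiblast transcription factor, was at 19.5 CPM against 37.2 CPM (-0.90) but below the level rule. Foxd3 was at 6.69 CPM against 1.57 CPM, also below that rule. The cells with the highest score thus had the highest Dnmt3b and Wnt8a without the highest Fgf5 or Otx2.

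Of 14 listed naive genes only Klf2, Klf4, Klf5 and Dppa5a passed the level rule, with a median log2 ratio of -0.55. Klf4, at 100 CPM in the members and 281 CPM in the low-scoring cells (-1.48), was at least 2-fold lower. Klf4 was at 144 CPM in the macrophage-scored cells, which were above the members in this gene. Zfp42 was alike in both groups, with 31.7 CPM and 31.9 CPM, and Tfcp2l1 was at 7.60 CPM against 91.1 CPM in naive cells. Summed over the list, naive genes were at 364 CPM in the members, 334 CPM in the macrophage-scored cells and 4090 CPM in naive cells. The like sums of the first 2 groups hide opposite differences. The macrophage-scored cells were above the members in Klf4 and Klf2 (56.9 CPM against 36.7 CPM). The members were above them in Dppa5a (119 CPM against 61.5 CPM) and Zfp42 (31.7 CPM against 17.7 CPM).

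Ligands, receptors and targets of the signals that hold the primed state held genes on either side of 0. In the Nodal and activin pathway, 8 of 16 genes passed the level rule, 2 were higher and 1 lower, beside 7.04% and 11.2% of all genes, with a median log2 ratio of 0.26. Tdgf1 and Fst (follistatin, an inhibitor of activin) were higher, the latter with 212 CPM against 89.6 CPM. Nodal itself was at 64.7 CPM against 40.9 CPM (0.65). Inhba, which encodes the activin A subunit, was at 72.5 CPM in the members and 208 CPM in the low-scoring cells (-1.51), and the macrophage-scored cells were at 103 CPM. In the FGF pathway 7 of 18 genes passed, and Fgf8 (57.9 CPM against 23.1 CPM, log2 ratio 1.29) and the target Etv5 (84.9 CPM against 36.4 CPM, 1.20) were higher. The receptor gene Fgfr1 (-0.02) and the feedback gene Dusp6 (0.03) lay at 0, and Spred1, an inhibitor of the pathway, had -0.75. In the Wnt pathway 7 of 19 genes passed and the median was -0.31. Wnt8a and Lef1, a nuclear effector and target, were higher, and Lef1 had 95 CPM in the members, 20.4 CPM in the low-scoring cells and 9.10 CPM in naive cells (log2 ratio 2.17). Wnt5a (-1.08) was lower, and Tcf7l1, the repressor of Wnt targets, had -0.79.

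Genes of DNA methylation differed by enzyme. Among 7 that passed, 3 were at least 2-fold higher, beside 7.04% of all genes. These were Dnmt3b, Uhrf1 (the partner of the maintenance enzyme, 150 CPM against 56.1 CPM) and Tdg (a glycosylase that removes oxidized methylcytosine, 106 CPM against 51.2 CPM). Dnmt3a was on the other side of 0, with 63.0 CPM in the members, 111 CPM in the low-scoring cells and 137 CPM in the macrophage-scored cells (-0.80). Of RNA-binding genes of early cells outside the score, Trim71 (1.32) and Igf2bp1 (1.01) were higher, Igf2bp3 had 0.74 and Igf2bp2 -0.28.

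Genes of serine, glycine and folate metabolism were higher in the members. All 7 of the 11 listed genes that passed the level rule were at least 2-fold higher in the members, against 7.04% of all genes, with a median log2 ratio of 1.44. These genes make serine from glycolysis (Phgdh, Psat1, Psph) and pass its carbon to folate (Shmt2, Mthfd1, Mthfd1l, Mthfd2). Psat1 was at 247 CPM in the members, 88.2 CPM in the cells between, 34.5 CPM in the low-scoring cells and 15.7 CPM in the macrophage-scored cells. Mthfd2 was at 179, 58.7, 26.5 and 13.1 CPM in the same order. Psph had a log2 ratio of 1.65, Mthfd1 of 1.43, Mthfd1l of 1.20 and Phgdh of 1.16. The list was not particular to the primed state, since it summed to 1016 CPM in the members and 1049 CPM in naive cells, against 301 CPM in the low-scoring cells and 219 CPM in d8 cells. Of nutrient transporters, Slc7a5, which imports large neutral amino acids, was higher (56.6 CPM against 15.4 CPM), as was the glucose transporter gene Slc2a3 (333 CPM against 166 CPM).

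Because these genes moved together, their promoters were searched for short motifs. Windows of 300 bases around the RefSeq start site (GRCm38.p6, 250 bases before to 50 after) were available for 211 of the 290 higher genes. The CCAAT box (letters CCAAT, or ATTGG on the other strand) was found in 57.8% of these, in 36.1% of the lower genes, in 44.2% of all genes that passed the level rule and in 41.1% of the promoters of 27025 genes. It was found in 5 of the 7 serine and folate genes. For each motif, a gene was counted if any of its windows held a match. The 200 bases before the start site are given 5′ to 3′ on the coding strand, with CCAAT or ATTGG in capitals, to show where the matches lie. For each gene the first window that held a match was taken, so the presence of a match in these sequences was set by that choice. Psat1 spans chr19:15925060-15925259, Mthfd2 chr6:83317605-83317804 and Phgdh chr3:98339970-98340169, all on the minus strand.

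Psat1: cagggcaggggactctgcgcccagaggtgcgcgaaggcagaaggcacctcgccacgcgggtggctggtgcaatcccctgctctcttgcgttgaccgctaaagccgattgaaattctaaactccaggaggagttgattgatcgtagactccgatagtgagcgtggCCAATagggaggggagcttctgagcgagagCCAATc
Mthfd2: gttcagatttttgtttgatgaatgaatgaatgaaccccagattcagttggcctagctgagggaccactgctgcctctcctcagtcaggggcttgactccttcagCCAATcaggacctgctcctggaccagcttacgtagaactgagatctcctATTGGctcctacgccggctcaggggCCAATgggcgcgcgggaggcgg
Phgdh: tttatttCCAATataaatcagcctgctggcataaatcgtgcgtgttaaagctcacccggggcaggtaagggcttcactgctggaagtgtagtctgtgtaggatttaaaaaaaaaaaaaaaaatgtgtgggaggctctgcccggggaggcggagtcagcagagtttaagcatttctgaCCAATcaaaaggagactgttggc

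The matches lay 36 and 6 bases before the start site in Psat1, 96, 47 and 22 bases before it in Mthfd2 and 193 and 23 bases before it in Phgdh. In GENCODE M21 the windows of Psat1 and Mthfd2 lie within the gene itself and that of Phgdh overlaps its end on the start side, and exons cover 0 bases of it in Psat1, 2 in Mthfd2 and 21 in Phgdh. The CCAAT box was 1 of 10 motifs searched on both strands, and it is shown because its share was seen to differ. The octamer of POU factors (ATGCAAAT) was in 0.948% of the higher genes and 1.37% of all that passed, and a composite motif of the stress factor ATF4 (TGATGNAA) in 4.27% and 2.25%. For the other 7 motifs the shares in the same order were 15.6% and 13.3% for CACGTG, 64.9% and 73.4% for GGGCGG, 18% and 13.8% for GGAATG, 82.5% and 89.3% for CC and GG spaced by 6 bases, 5.69% and 5.60% for TGANTCA, 2.37% and 2.74% for the NRF1 motif, and 4.27% and 4.59% for AAGATGGCG. A match describes the letters of these windows and not the binding of a factor.

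Among growth and division genes, those of the nucleolus and of S phase were mostly past the 2-fold limit and those of G2 and M phase mostly were not. Of 11 genes of the nucleolus and ribosome assembly that passed, 9 were at least 2-fold higher, beside 7.04% of all genes (median log2 ratio 1.08), led by Wdr12 (1.30), Dkc1 (1.30) and Npm1, which was at 6604 CPM against 2965 CPM. Of 13 S phase genes that passed, 10 were higher (median 1.05), among them the helicase subunit genes Mcm5 (1.53) and Mcm3 (1.35) and the ribonucleotide reductase gene Rrm2 (1.26). Of 14 genes of G2 and M phase 4 were higher (median 0.60), with Birc5 at 1.16, Plk1 at 1.07 and Aurka at 1.06, whereas Cenpe had 0.10. All of these lists were at similar sums in naive cells, such as 2368 CPM in the members and 2119 CPM in naive cells for S phase. Glycolysis genes had a median of 0.86, but only Pkm (1989 CPM against 929 CPM) and Eno1 (1072 CPM against 509 CPM) passed the 2-fold limit among 11. With TMM scaling 6 of 11 did, beside 549 of all 4089 genes that passed under that scaling. Of p53 and its targets, Trp53 was at 286 CPM against 155 CPM (0.88), whereas the cell cycle inhibitor gene Cdkn1a was at 426 CPM in the members (log2 ratio -1.16), Perp had -0.97 and Mdm2 -0.93.

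Genes of fibroblasts, smooth muscle and matrix were mostly lower in the members, where 11.2% of all genes were. Of 11 fibroblast genes that passed, 10 were at least 2-fold lower, with a median log2 ratio of -1.98. Lox missed the limit at -0.97. Summed over the list of 14, fibroblast genes were at 628 CPM in the members, 631 CPM in the macrophage-scored cells, 1477 CPM in the cells between and 3544 CPM in the low-scoring cells. Reads of at least 3 fibroblast markers were present in 38.5% of thinned members (33.3 to 43.9%) and 40.2% of macrophage-scored cells (33.2 to 47.5%), and in 62.8% of low-scoring cells (59.3 to 66.2%). The members thus held fibroblast transcripts at the level of the macrophage-scored cells. Smooth muscle genes were lower in 4 of 4 (median -1.33), led by Tagln (-1.53), and genes of matrix and proteases in 13 of 14 (median -1.49), among them Fn1 (241 CPM against 815 CPM). Among epithelial genes the simple keratin genes Krt8 (215 CPM against 693 CPM) and Krt18 (177 CPM against 667 CPM) were lower and Epcam was higher (157 CPM against 60.7 CPM). Epcam was at 39.0 CPM in naive cells. At least 3 epithelial markers were read in 24.2% of thinned members (19.8 to 29.1%) and 26.2% of low-scoring cells (23.2 to 29.4%), and at least 3 neural markers in 15.7% (12.1 to 20%) and 16.4% (13.9 to 19.2%), with overlapping intervals. The E-cadherin gene Cdh1 was at 34.0 CPM in the members, 54.1 CPM in the low-scoring cells and 198 CPM in naive cells.

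Several macrophage markers together were read in few members, although Lyz2 alone, a lysozyme of macrophages, was read in 52.5% of thinned members and 90.9% without thinning. Macrophage genes summed to 398 CPM in the members, 1209 CPM in the low-scoring cells and 45403 CPM in the macrophage-scored cells, and at least 3 of 10 were read in 2.33% of members (1.01 to 4.54%) and 6.31% of low-scoring cells (4.72 to 8.23%). No member had 3 endothelial markers (0 of 343, which allows up to 1.07%). The genes of the proteins that carried the tags were not highest in the members: Cd63 was at 313 CPM against 1101 CPM in the low-scoring cells (-1.81), and Cd9 at 92.0 CPM against 148 CPM (-0.69). Xist, the RNA of the inactive X chromosome, was at 103 CPM in the members, 315 CPM in the low-scoring cells and 98.3 CPM in the macrophage-scored cells. The Y-linked gene Ddx3y was at 4.99 CPM in the members, 10.1 CPM in the low-scoring cells and 58.2 CPM in naive cells.

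As whole profiles, the low-scoring cells resembled treated cells more than they resembled the members. Over the genes that reached 50 CPM in one or both sums, the Pearson correlation r on the scale log2(CPM + 1) stood at 0.948 between low-scoring and d8 cells (3854 genes) and 0.939 between low-scoring and d16 cells (3950 genes), but 0.815 between low-scoring cells and members (4124 genes). The members were at 0.858 with naive cells (3769 genes), 0.837 with d16+10p cells, 0.802 with d16 cells and 0.749 with d8 cells. The cells between were at 0.926 with the members and 0.959 with the low-scoring cells. These values describe single pairs of sums from 1 library, across genes that are not independent. The score genes were kept in these sums. The members and the low-scoring cells were taken from opposite ends of the score, so the low r between them follows in part from that selection.

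Inside the members, some genes of lineages were spread unevenly and others were not. At 5000 reads per cell, 4080 genes had at least 0.2 reads per member, and their ratio of variance to mean had a median of 1.25 and a range from 1.02 to 1.61 between the 5th and 95th percentiles. Pou5f1 had a read in 82.2% of members (77.8 to 86.1%) and a ratio of 1.43, at the 85.6th percentile of these genes. Sox2 was read in 67.1% (61.8 to 72.0%, ratio 1.55) and Nanog in 44.3% (39.0 to 49.7%, ratio 1.40). Of the genes with the largest ratios to the low-scoring cells, Dnmt3b had 1.54, Wnt8a 1.28 and Kcnj3 1.19, whereas Gm19792 had 2.47 (rank 34). The macrophage-scored cells had a read of Pou5f1 in 11.3%, of Sox2 in 18.6% and of Nanog in 10.3%. Their median depth before thinning was 19714.5 reads, beside 23822.5 in the members. Without thinning, Pou5f1 was read in 95.7% of members and 28.0% of low-scoring cells.

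Lefty1, an inhibitor of Nodal chosen here after its values were seen, was among the most uneven genes, with a ratio of 3.41 (rank 15 of 4080). It was read in 72.3% of members (67.2 to 77.0%), with up to 14 reads in a cell, and the 34 members with most reads of it held 33.3% of its reads. Its level was 624 CPM in the members, 890 CPM in the cells between and 442 CPM in the low-scoring cells. Tdgf1 had a ratio of 2.73 and up to 23 reads in a cell, Car14 1.85, Fgf15 1.7, Fgf8 1.64, Pou3f1 1.61 and Fgf5 1.59. Among neural genes, Fabp7, a fatty acid carrier of radial glia, had 2.40 with a read in 18.4% of members, and Stmn2, a neuronal tubulin regulator, 1.78 with a read in 42.3%. Stmn2 was read in 16.5% and Fabp7 was at 34.8 CPM in the macrophage-scored cells, against 50.5 CPM of Fabp7 in the members. This unevenness was not particular to the members. In the low-scoring cells the ratio of variance to mean was 10.8 for Lefty1, 7.87 for Fabp7 and 3.09 for Fgf8. Of the genes named in this paragraph only Car14 had a smaller ratio there, at 1.64.

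**Figure D4:**
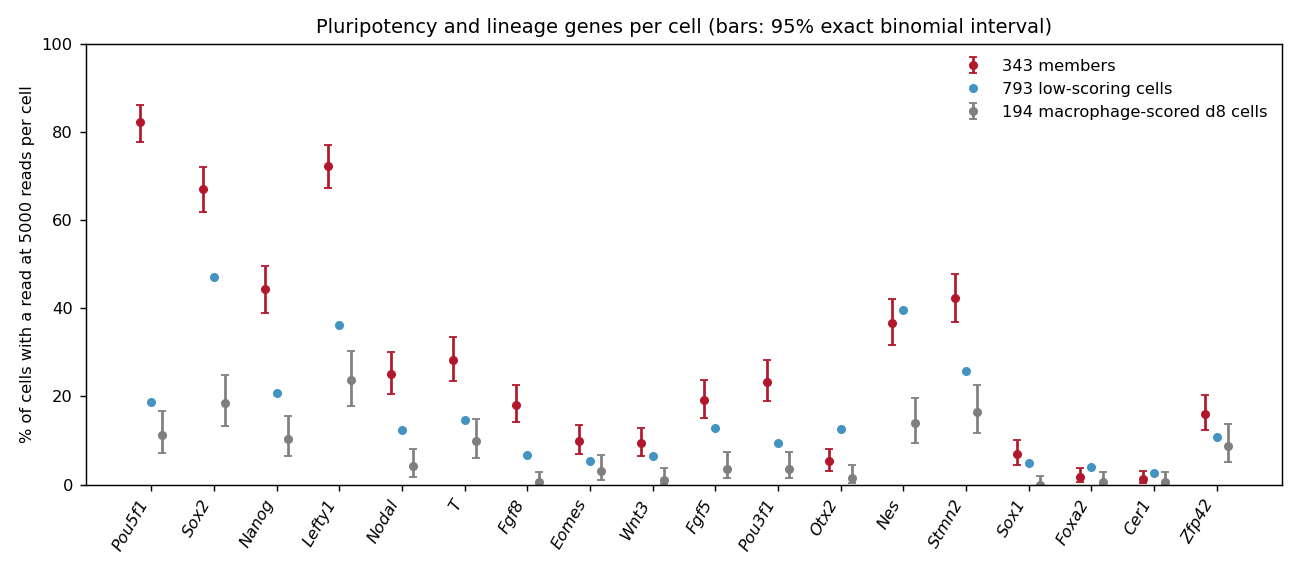
Percentage of cells with a read of each gene after thinning to 5000 reads, in 343 members, 793 low-scoring cells and 194 macrophage-scored d8 cells, with 95% exact binomial intervals for the first and last group. T, Fgf8, Fgf5 and Pou3f1 were read in 18.1% to 28.3% of members, and Foxa2 and Cer1 in under 2% of them.

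The streak gene T (chromosome 17, 8434423 to 8442496) was read in 97 of 343 thinned members (28.3%, 23.6 to 33.4%), in 14.6% of low-scoring cells and in 9.79% of macrophage-scored cells (6.0 to 14.9%). Without thinning, 52.3% of members and 19.4% of low-scoring cells had a read. The summed level of T differed little between the groups, with 95.1 CPM in the members and 102 CPM in the low-scoring cells (log2 ratio -0.11, interval -0.24 to 0.02, with the sign turned by TMM scaling and with 450 members). No order of the groups is therefore read from the shares. The reads were distributed differently. In the members, 17 cells had 3 or more T reads and held 41.2% of the thinned T reads, and the highest cell had 9. In the low-scoring cells, 53 cells had 3 or more and held 80.8%, and the highest had 15. No macrophage-scored cell had more than 2.

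Pluripotency genes were still read in members rich in T, some at lower levels than in members with no T read. Over all thinned members, reads of T and Pou5f1 had a rank correlation (Spearman) of -0.19. In the 17 members with 3 or more T reads, Pou5f1 was at 396 CPM, Sox2 at 229 CPM, Nanog at 138 CPM and Dnmt3b at 147 CPM. In the 246 members with no T read these genes were at 456, 264, 135 and 190 CPM. The 53 low-scoring cells with 3 or more T reads had Pou5f1 at 36.7 CPM, Sox2 at 115 CPM, Nanog at 52.1 CPM and Dnmt3b at 12.2 CPM. Low-scoring cells with no T read were at 64.4, 191, 64.0 and 28.2 CPM, so the low levels of these genes were not limited to cells with T. The median score was 0.684 in the 17 members and 0.914 in those with no T read. Wnt8a was at 113 CPM in the 17 members and 45.8 CPM in those with no T read, Lef1 at 160 CPM and 87.1 CPM, and Lefty1 at 998 CPM and 579 CPM. Fgf8 was at 68.8 CPM and 50.3 CPM, and Pou3f1 at 81.1 CPM and 68.5 CPM. Lower in the 17 members were Fgf5 (44.2 CPM and 69.2 CPM), Car14 (34.4 CPM and 62.7 CPM) and Nodal (34.4 CPM and 65.0 CPM). Eomes, the partner of T in early streak cells, was at 14.7 CPM and 27.7 CPM, so that the 17 cells were not higher in it. These cells were chosen by their T reads after the data had been seen, and with 17 cells their sums are a description.

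Other streak genes were read in fewer members than T. Fgf8 was read in 18.1% of members (14.1 to 22.6%) and 0.515% of macrophage-scored cells, Eomes in 9.91% (6.96 to 13.6%) and 3.09%, and Wnt3 in 9.33% and 1.03%. T and Fgf8 were read together in 28 members, Fgf8 and Wnt8a in 24. Mixl1, Tbx6 and Cdx1 were read in 1 member each, Evx1 in 4 and Cdx2 in 5. Mesp1, Wnt3a, Hand1 and Msgn1 of the streak and mesoderm list and Sox7 of the endoderm list were read in 0 of 343 thinned members. Of the other endoderm genes Hhex was read in 6.12% of members, Foxa1 in 4.66%, Cxcr4 in 3.79%, Foxa2 in 1.75%, Cer1 in 1.17% and Sox17 in 0.583%, and no endoderm gene passed the level rule. Besides Stmn2 and Fabp7 above and Nes, read in 36.7% of members, the neural gene Sox1 was read in 7.0% of members and in 0 of 194 macrophage-scored cells (up to 1.88%), Hes5 in 7.87% and Pax6 in 3.5%. Hes5, a Notch target, was at 19.4 CPM in the members and 6.61 CPM in the low-scoring cells, below the level rule.

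The most unevenly spread gene was Lyz2, with a ratio of variance to mean of 24.0, followed by the naive marker Dppa5a (17.2), Spp1 (13.9), Igf2 (11.1), Vtn (11), Tmsb4x (7.79), Ccl2 (6.04), CT010467.1 (5.99), Vim (5.03) and Gm49394 (4.84). Of 446 thinned Lyz2 reads, 139 were in the 8 members with at least 3 macrophage markers. Of 214 thinned Dppa5a reads, 98 were in 7 members with 5 or more, and 1 member had 58. Those 7 members had a median of 3 other naive markers, against 1 naive marker in the other members. Without these 15 cells, 292 genes were at least 2-fold higher and 471 at least 2-fold lower, and T was read in 28.4% of the remaining members.

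Cells of other tags that reached the score of the members differed by tag. Such cells numbered 96 of 9627 at d8 (0.997%, 0.808 to 1.22%), 41 of 4315 at d16 (0.950%, 0.683 to 1.29%), 18 of 1151 in d16+10p (1.56%, 0.929 to 2.46%) and 17 of 801 in naive (2.12%, 1.24 to 3.38%), and none of the 200 macrophage-scored cells did. Pou5f1 was at 335 CPM at d8 (311 to 361), 399 CPM at d16, 398 CPM for d16+10p cells and 370 CPM for naive cells. The members were at 439 CPM (425 to 453). The sum of the d8 cells was the lowest, but these intervals leave out variation between cells, and no difference between groups is read from them. The d16, d16+10p and naive cells with a high score had naive genes, with Dppa5a at 3426, 2888 and 2540 CPM against 119 CPM in the members and Zfp42 at 519, 630 and 535 CPM against 31.7 CPM. Their Kcnj3 was at 1.53, 2.50 and 29.9 CPM against 50.8 CPM. The score thus selected cells of both pluripotent states, depending on the tag it was applied to.

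The 96 d8 cells with a high score had Dppa5a at 68.6 CPM (57.8 to 80.8) and Zfp42 at 13.9 CPM (9.32 to 20), below the 119 CPM and 31.7 CPM of the members. Their Kcnj3 was at 53.3 CPM (43.8 to 64.1), beside 50.8 CPM (46.2 to 55.7) in the members. Their Wnt8a was at 71.5 CPM (60.5 to 84.0), beside 52.3 CPM (47.6 to 57.3) in the members. They also differed in Fgf5, with 266 CPM against 62.9 CPM in the members, in the keratin gene Krt8 (651 CPM against 215 CPM) and, lower, in Dnmt3b (88.3 CPM against 189 CPM), Lef1 (12.5 CPM against 95 CPM), Psat1 (58.1 CPM against 247 CPM) and Mthfd2 (46.1 CPM against 179 CPM). Across 3881 genes their sum had an r of 0.908 with the members. The d16, naive and d16+10p cells with a high score had 0.827, 0.814 and 0.768, and their sums were smaller. The genes that set the members apart gave another order. Of the 290 genes higher in the members, 57 were also higher in the d8 cells with a high score. The counts were 121 for d16, 123 for d16+10p and 145 for naive cells with a high score. Of the 460 lower genes, 185 were also lower in these d8 cells, against 276, 335 and 330 in the same order. The d8 cells were thus closest to the members by r but shared the fewest of these genes.

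**Figure D5:**
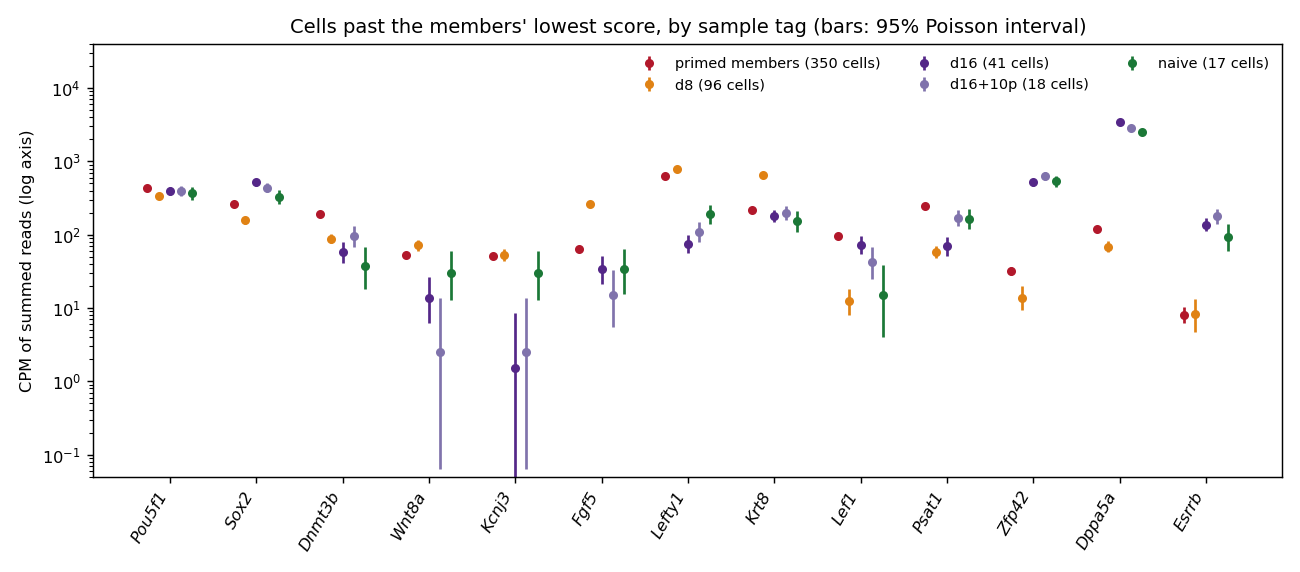
CPM of summed reads on a log axis, with 95% Poisson intervals, for the primed members and for the cells of each other tag with a score at or above that of the lowest member. Pou5f1 lies between 335 and 439 CPM in all 5 groups, Zfp42 and Dppa5a are high in d16, d16+10p and naive cells, and Fgf5 and Krt8 are highest in d8 cells.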

How the data were processed

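The deposited values are raw counts: each is a whole number of reads for 1 symbol in 1 cell. As the study describes, the authors trimmed reads with cutadapt 2.10 and mapped them with Bowtie2 2.3.4.1 to Ensembl transcripts of GRCm38.p6. They then counted reads per symbol, dropped barcodes below the knee and removed likely doublets from the tag counts. No collapsing by molecular identifiers is described, so the counts were taken as reads. Symbols with near-identical copies can share reads. The members and gene lists were chosen with earlier results of these data known.

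From the counts, CPM of summed reads, log2 ratios with a pseudocount of 1 CPM and exact 95% intervals (binomial for shares and ratios, Poisson for sums) were computed in Python 3.11.15 with scipy 1.17.1. Each primed-tagged group is part of 1 sample, so no test was made. The level rule was 50 CPM in either group and 100 reads over both, without the 6 score genes and mitochondrial genes. Shares and spread used reads thinned to 5000 per cell, which left out 7 members and 207 low-scoring cells. Members held 8819680 reads and low-scoring cells 11491075. The text names the 15 genes at each end of the ratio (of which 1 is not reported here), genes of the core, primed, naive, streak, endoderm, neural, tag and sex lists, and of the other lists the 3 highest and 3 lowest. The 10 genes most uneven within the members were added by the same rule. Lefty1, the genes read in cells rich in T and those shown for other tags were named after their values were seen. The code was run on sums of these 2 groups simulated with Poisson counting error alone. It called 50 of 50 genes at a log2 ratio of 2 and 0 of 3319 unchanged genes, and 95.2% of 3519 intervals held the true ratio. The simulation had no variation between cells, so it checks the code and not the fit of the intervals to these data. Alternatives (TMM with edgeR 4.0.16 in R 4.3.3, pseudocount, level rule, group sizes, score genes, thinning, cell filter) are given below. Promoters and start sites are from RefSeq, gene positions from GENCODE M21.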

Additional observations from a re-analysis of the deposited data

How the results depend on the processing

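No paired analysis was possible because the library carries no replicates. The counts of genes moved by over 1.5 times with TMM scaling (549 higher and 242 lower in place of 290 and 460), against all other primed-tagged cells (158 higher, 300 lower), when the score was computed after thinning (168 higher, with 308 lower within that limit), with a floor of 20 CPM (961 lower, with 431 higher within that limit) and with no floor (537 higher, 1605 lower). No gene called in one direction was called in the other in any of the 19 alternatives. The primed epiblast median of 1.02 moved to 1.44 with TMM, 0.59 with 450 members and 0.53 with the score after thinning. The fibroblast median of -1.98 moved to -1.68 with a pseudocount of 10 CPM, -1.75 with TMM, -2.54 against the 500 lowest cells, -1.66 against all other primed-tagged cells, -1.75 with the score after thinning and -1.75 with the limits of 2000 and 8000 genes. Score versions that left out 1 of the 6 genes gave 251 to 281 higher genes, 407 to 462 lower genes, primed medians of 0.85 to 1.05 and T shares of 26.7% to 28.1%. The T share of 28.3% was 52.3% without thinning and 18.6% at 3000 reads, as fewer reads per cell leave fewer cells with a read. The causes of the other moves were not tested. Of 43 named genes past 2-fold, none changed sign, and 39 stayed past it in all 17 alternatives run on them. Nanog, Fgf8, Mthfd1l and Cldn6 did not. The comparison at matched depth and the one without 15 members that held reads of other states were chosen after seeing the data.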
